A study of Mus musculus with 12 samples.

Results

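The cytosolic ribosomal protein (RP) genes encode the protein parts of the ribosome that translates nuclear-encoded mRNA, and were followed in sorted CD8+ T cells, positive for PD-1 and CD44, from female NZB/W F1 mice. This cross develops lupus nephritis with age. They were chosen by name, as genes called Rps or Rpl with a number, the P stalk genes *Rplp0*, *Rplp1* and *Rplp2*, and *Rpsa*. The rule found 83 of 18992 genes in all, of which 83 were in the 12W spleen table and 82 in each of the 28W spleen and 28W kidney tables. Of the 83, 76 encode core subunits and 7 are paralogs, that is, related copies of a core gene. Other names of ribosome components, such as *Rps3a1*, *Fau* and *Rack1*, fall outside the rule.

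Sorted cells came from spleen at 12 weeks of age, before disease (12W spleen), from spleen at 28 weeks, in advanced disease (28W spleen), and from kidney at 28 weeks (28W kidney). All groups share the NZB/W F1 background and the same surface sort, and the labels list no treatment. Where 3 values stand together below, they are for 12W spleen, then 28W spleen, then 28W kidney. Another field of the labels gives the 28W spleen samples an age of 12 weeks, and here their titles were followed. Each group has 4 samples that its table pools without saying which cell came from which, so each is 1 library, no difference has a replicate check, and no test was made.

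The small 40S subunit reads the mRNA and the large 60S subunit joins amino acids, while the P stalk of the large subunit recruits translation factors. Most RP mRNAs start with a run of pyrimidines, the 5′ terminal oligopyrimidine (TOP) tract, through which mTORC1 and LARP1 control their translation and stability together. Resting T cells keep a large pool of these mRNAs, and T cells that start to grow and divide build new ribosomes.

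Start-site sequences were compared first, because the tract is what RP mRNAs have in common beyond their names. RefSeq start windows on GRCm38.p6 were listed for 63 of the 83 genes. A run of at least 8 bases, each C or T, that begins between 20 bases before and 30 bases after a listed start was present in 41 of the 63 genes (65.1%). The same held for 6028 of 27025 mouse genes (22.3%) and for 3019 of the 13218 genes (22.8%) that are in these tables and have a listed start. The transcript strand alone was searched, and a match is a description of the letters, not a mapped site. For genes on which the results turn, 30 bases are printed with the longest run in capitals. A run that begins before the searched span, as in *Rps27l* and *Rpl7l1*, stays in lower case even where it is as long or longer. The first 5 had the highest ratios by age among genes with a window, *Rps24* was the most abundant, *Rpl27a* was among the steadiest, and the last 5 are paralogs and a parent.

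Rpl38: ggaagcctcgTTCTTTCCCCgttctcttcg
Rps28: gtaccgcgtgcggTCTCgcgagagcgaaag
Rps27: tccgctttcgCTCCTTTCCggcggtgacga
Rps21: ccgaggacccgCCCTCCTgcccaatagtgc
Rpl13a: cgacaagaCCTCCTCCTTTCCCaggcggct
Rps24: cgcgctggggTCCTTCCTTgcgcgttgata
Rpl27a: gtgagCTCCTCCCTTTTCCCTTTCTgccac
Rps27l: ctcctctccaCTCCTCCCCgccgcctctat
Rpl22l1: cgcaagcccgTTCTCTTCCCacggctgcag
Rpl7l1: cctctctaccccgCCCggtgaggctgcgca
Rpl36al: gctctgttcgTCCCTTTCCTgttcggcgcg
Rpl36a: ggctctagCCTCTCTCTTTCCgagctgcta

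The *Rpl38* window lies at chr11:114668568-114668597 on the plus strand, with a run of 10 bases, and that of *Rps28* at chr17:33824547-33824576 on the minus strand, where the longest run has 4. *Rps27* (chr3:90213631-90213660, minus strand) and *Rps27l* (chr9:66946064-66946093, plus strand) each have a run of 9 bases. The longest run of these 12 genes, 20 bases, belongs to *Rpl27a* (chr7:109519186-109519215, plus strand). In *Rpl7l1* (chr17:46782659-46782688, minus strand) the longest run that begins within the span has 3. *Rpl38* and *Rps28*, both high in 28W spleen, thus differ in this run.

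RP genes made up 31.8% of unique molecular identifiers (UMIs, which count captured transcripts) in 12W spleen, or 11042255 of 34742303. The share was 33.4% for 28W spleen (10704794 of 32023473) and 25.1% for 28W kidney (7503253 of 29937384). The exact binomial 95% intervals are at most 0.0327 percentage points wide and cover counting error only. The 28W kidney library was thus the lowest and the splenic libraries lay close together. Per cell, RP UMIs averaged 1602, 1652 and 1052. UMIs of all other genes averaged 3438, 3289 and 3144 per cell, so that the kidney library was low mainly in RP UMIs. The split within the ribosome was steady. The 40S genes took 43.6%, 44.6% and 43.6% of RP UMIs, and the 60S and stalk genes together 55.7%, 54.8% and 55.6%.

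*Cd3e* was at 1107, 1047 and 1306 counts per 1000000 UMIs (CPM) and *Cd8a* at 591, 488 and 738 CPM, which fits the T cell label in all 3 libraries. Not all clusters did. By summed markers of B cells, myeloid cells, kidney tubule or red cells, 1 of 10 clusters in 12W spleen, 2 of 11 in 28W spleen and 5 of 12 in 28W kidney carried RNA of other cells. A further measure, mean UMIs per cell under one part in 3 of the library mean, marked 4 low-RNA clusters, 2 of them also among these. The remaining 23 of 33 clusters, with 2885 to 8594 CPM of 6 T cell markers, are called T cell clusters. Library shares, levels and ratios use all clusters unless stated. Pairs of libraries had 52 to 66 cell barcodes in common.

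Core genes had a median level of 4301, 4611 and 3253 CPM. Their range was 505 to 10722 CPM, 567 to 10679 CPM and 441 to 8205 CPM. A UMI marks the 5′ end of 1 transcript, so these levels were not divided by length. *Rps24*, of the small subunit, was highest in each library, at 10722, 10679 and 8205 CPM. *Rpl41*, which encodes the smallest RP, followed at 10080, 10048 and 7570 CPM. *Rps15a* (7934, 7574 and 6103 CPM), *Rpl13* (7884, 7612 and 5655 CPM) and *Rpsa* (7803, 7921 and 5596 CPM), the laminin receptor relative in the 40S subunit, completed the 5 highest in 12W spleen. Each of these 5 was lowest in kidney. *Rpl23a* had the lowest core level in every library.

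**Figure D1:**
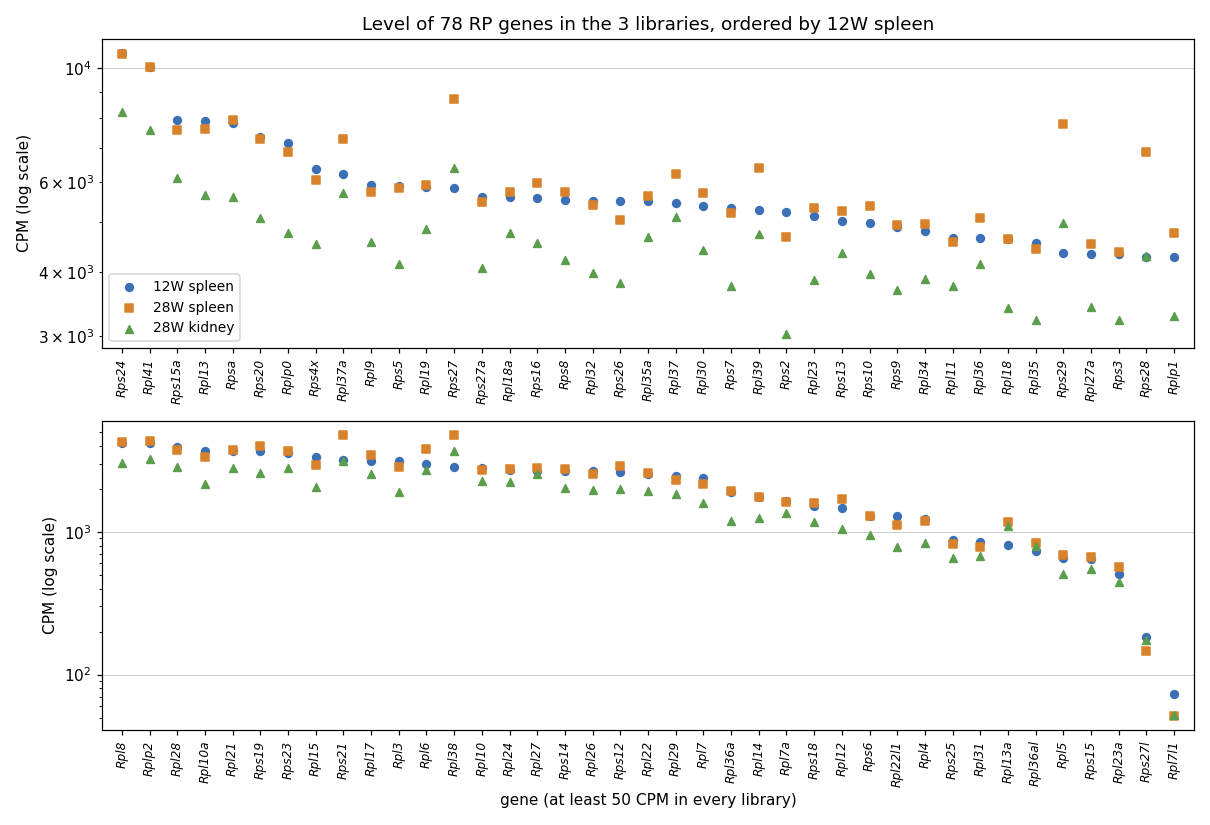
Level of 78 RP genes in counts per 1000000 UMIs on a log axis, ordered by 12W spleen; blue circles are 12W spleen, orange squares 28W spleen and green triangles 28W kidney, 1 library each. The splenic points mostly coincide, *Rps29*, *Rps28*, *Rps27*, *Rps21* and *Rpl38* stand higher in 28W spleen, and kidney points lie below 28W spleen for 76 of the genes drawn.

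Some levels depend on near-identical genes. *Gm10260*, outside the rule, matches 99.1% of the coding bases of *Rps18* and was at 2483, 2604 and 1504 CPM, above *Rps18* itself at 1523, 1588 and 1176 CPM. How UMIs divide between the pair is uncertain. Summed, the pair had a log2 ratio of 0.065 by age and -0.65 by organ, against 0.060 and -0.43 for *Rps18* alone. *Rps27rt*, named after its values were seen, is identical to *Rps27* over the coding bases but had only 105, 58.9 and 53.1 CPM. Its addition left the ratio of *Rps27* by age at 0.56.

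The age comparison asked how the mRNAs of splenic cells differ between 12 and 28 weeks. The RP genes as a set were nearly level, with a median log2 ratio of 0.012 over the 80 genes with at least 50 CPM, whereas the median of all 2768 genes tested was -0.10. Set against that median gene, RP genes stood at 0.12. Of the 80, 46 had a ratio above 0 and 34 below, beside 897 above and 1871 below among all genes tested. At 1.5-fold, 3 RP genes (3.75%) were higher in 28W spleen, beside 4.08% of all genes tested. None was lower, beside 2.28% of all genes. At 1.2-fold the counts were 8 higher (10.5% of all genes tested) and 2 lower (21.2%). The share called higher was therefore near the background. Over T cell clusters alone the median ratio of RP genes by age was 0.0023, with 42 genes above 0 and 38 below. The same counts of all genes by age were not taken for T cell clusters.

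The genes past 1.5-fold were *Rps29*, *Rpl38* and *Rps28*. *Rps29* (ENSMUSG00000034892, GRCm38 chromosome 12, 69157722 to 69159186, minus strand) encodes a small zinc-binding protein of the 40S subunit. Its level was 4357 CPM (4335 to 4379), 7786 (7755 to 7816) and 4982 (4957 to 5007). Its fold by age was 1.79. *Rpl38* (ENSMUSG00000057322, chromosome 11, 114668524 to 114672331, plus strand), a large subunit gene known for skeletal patterning defects when mutated, was at 2856 CPM (2838 to 2874), 4774 (4750 to 4798) and 3650 (3629 to 3672), a fold of 1.67 by age. *Rps28* (ENSMUSG00000067288, chromosome 17, 33819027 to 33824562, minus strand) was at 4271 CPM (4249 to 4292), 6878 (6849 to 6907) and 4305 (4281 to 4328), a fold of 1.61. The kidney level of *Rps28* lay at that of 12W spleen, with overlapping intervals, and those of *Rps29* and *Rpl38* lay between the splenic levels.

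Just under the threshold were *Rps27* and *Rps21*. *Rps27*, another zinc-binding 40S gene, was at 5839, 8694 and 6379 CPM. *Rps21*, a small 40S gene, was at 3192, 4752 and 3111 CPM. *Rpl13a*, best known as a component of a translation-silencing complex once released from the ribosome, was at 801, 1173 and 1104 CPM, with kidney close to 28W spleen. Both *Rps27* and *Rps21* had a log2 ratio of 0.57 by age, and *Rpl13a* one of 0.55. Scaled by the median gene ratio, these 3 also passed 1.5-fold and made 6 genes in all. The share of all genes past 1.5-fold under that scaling was not taken.

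The lowest ratios by age were held mostly by paralogs. *Rpl7l1*, a relative of *Rpl7*, had 73.1 CPM (70.3 to 76.0) at 12 weeks and 51.6 (49.1 to 54.1) at 28 weeks, a log2 ratio of -0.50. *Rps27l*, a relative of *Rps27* known as a p53 target, was at 183 and 147 CPM, a ratio of -0.31. *Rpl22l1* (-0.19) and *Rpl15* (-0.17) were also among the lowest 5. None reached 1.5-fold. The P stalk genes had log2 ratios from -0.058 for *Rplp0* to 0.16 for *Rplp1*.

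The genes with the highest ratios by age had short coding regions. A cut at 300 coding bases, set after the values were seen, left 9 core genes, of 75 to 291 bases, whose median log2 ratio was 0.57 and of which 8 lay above 0. The other 67 core genes had a median of 0.0069, with 37 above 0. The exception was *Rpl41*, the shortest at 75 bases, at -0.0046. Over the 76 core genes, Spearman's rho of the age ratio was -0.40 with coding length, -0.36 with transcript length and -0.10 with the number of pseudogene copies in GENCODE. For the organ ratio, rho with coding length was -0.17. These are descriptions across genes, which are not independent replicates. The paralog *Rps27l* lay on the other side of 0, at -0.31.

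**Figure D2:**
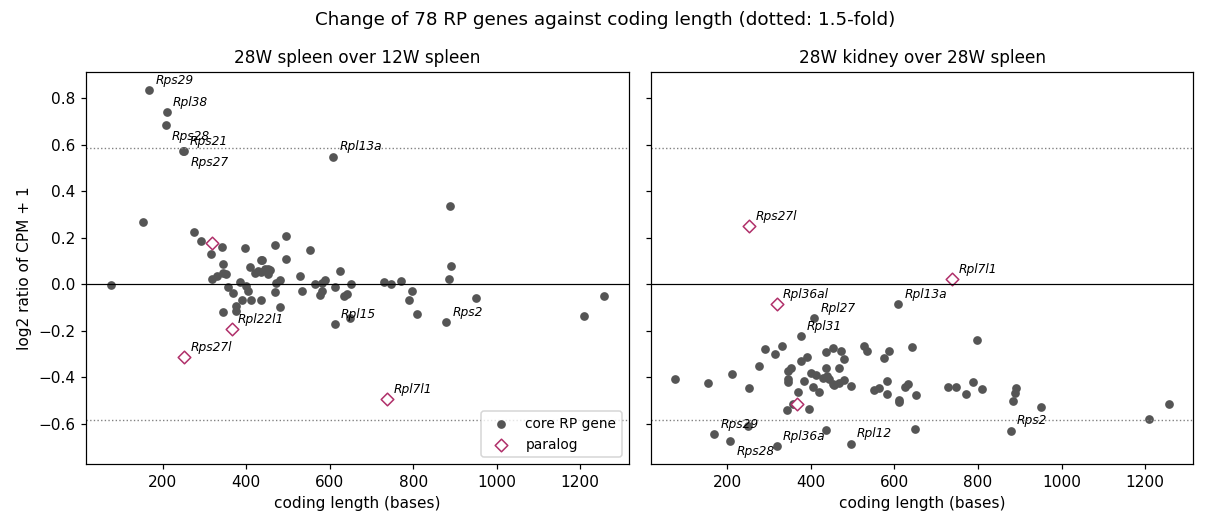
The log2 ratio of CPM + 1 of 78 RP genes against its coding length in bases, by age (left) and by organ (right); grey points are core genes, open diamonds paralogs, dotted lines 1.5-fold. By age the core genes above 0.5 are *Rps29*, *Rpl38*, *Rps28*, *Rps21* and *Rps27*, all with under 300 coding bases, and *Rpl13a*, whereas by organ nearly all genes lie below 0 at every length.

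The higher share of 3 of these genes was seen cluster by cluster. The 3 were chosen by their library ratio, which sums the same UMIs, so their cluster values are no separate check. As a share of RP UMIs, *Rps29* ranged from 1.21% to 1.56% over the 8 T cell clusters of 12W spleen and from 1.76% to 2.59% over the 8 of 28W spleen. *Rpl38* ranged from 0.734% to 1.04% and from 1.24% to 1.88%. *Rps28* ranged from 1.12% to 1.505% and from 1.66% to 2.25%. In these 3 genes no cluster of 1 library fell into the range of the other. In 28W kidney the same genes took 1.78% to 2.61%, 1.40% to 2.15% and 1.52% to 1.99% over 7 T cell clusters, also above every 12W cluster. The ranges were apart and higher by age in 5 of 80 RP genes (6.25%), the others being *Rpl6* and *Rpl37*, named after their values were seen. Of all genes tested, 0.289% were apart in UMIs relative to RP UMIs, though other genes, unlike RP genes, are not part of that denominator. In the lower direction this held for no RP gene (0.108% of all genes tested). By organ it held for 2.5% of RP genes higher (0.736% of all) and for none lower (0.281% of all). For *Rpl38* the level itself was also apart, at 2226 to 3619 CPM in 12W clusters and 4166 to 6170 CPM in 28W spleen clusters, which makes 1 of 80 RP genes (1.25%), beside 0.361% of all genes tested. Levels were apart in the lower direction in none (0.108% of all genes tested), and by organ in none, higher (1.37%) or lower (0.631%). Clusters of 1 library share their preparation and are not replicates, and age, animals and preparation cannot be told apart here.

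**Figure D3:**
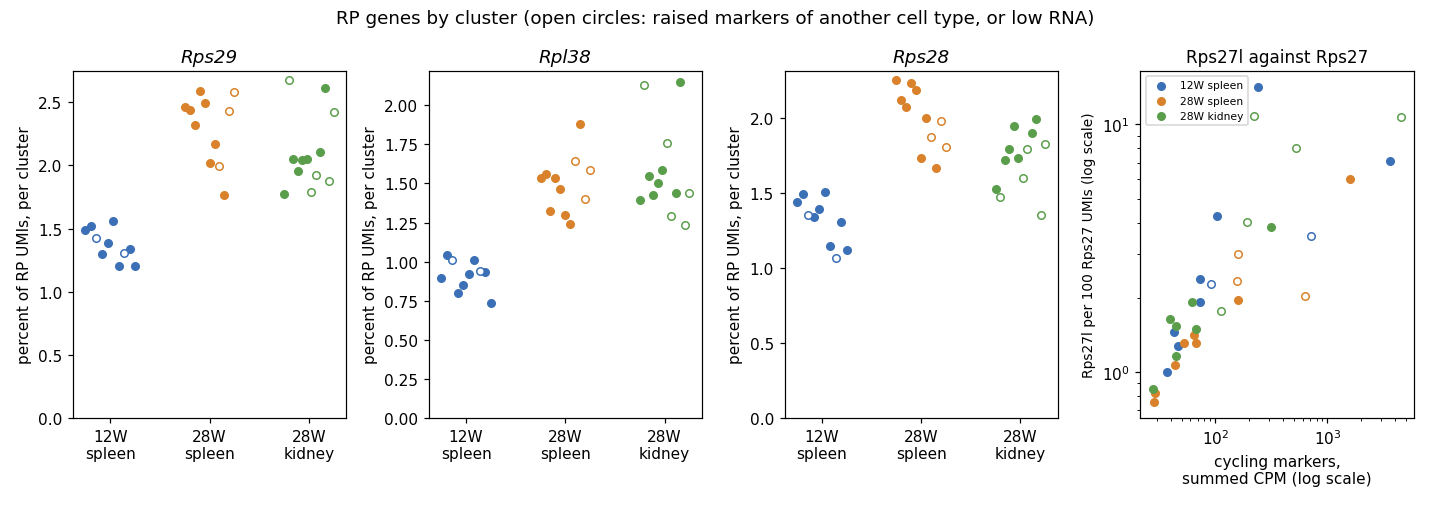
Left 3 panels: share of RP UMIs (percent) held by *Rps29*, *Rpl38* and *Rps28* in each cluster of the 3 libraries; right panel: *Rps27l* UMIs per 100 *Rps27* UMIs against the summed level of 5 cycling markers, both on log axes. Filled points are T cell clusters and open points clusters with markers of other cells or low RNA. All 28W spleen and 28W kidney T cell clusters lie above those of 12W spleen for the 3 genes, and the *Rps27l* ratio is low in most clusters with low cycling markers, while its highest value, 14.2, is at 238 CPM of these markers.

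The organ comparison took the kidney at 28 weeks against the spleen at 28 weeks. RP genes were lower in kidney almost without exception. The median log2 ratio of 28W kidney over 28W spleen was -0.42 for the 80 RP genes and 0.095 for all 2852 genes tested. Of the 80, 78 lay below 0, beside 1024 of all genes tested. All 30 genes of the 40S subunit (median -0.44), all 43 of the 60S subunit (median -0.41) and all 3 stalk genes (median -0.53) were below 0. At 1.5-fold, 8 RP genes (10%) were lower, beside 4.21% of all genes tested, and none was higher, beside 9.99%. At 1.2-fold, 71 (88.8%) were lower, beside 13.5%, and none was higher, beside 26.6%. The difference was thus small for each gene and shared by most of them.

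The lowest ratio was that of *Rpl36a*, an X-linked large subunit gene, with 1938 CPM (1923 to 1953) in the older spleen and 1195 (1183 to 1208) in kidney, a log2 ratio of -0.70. *Rpl12*, near the base of the stalk, went from 1686 to 1048 CPM (-0.69), and *Rps2*, a 40S gene, from 4684 to 3027 CPM (-0.63). *Rps28* (-0.68) and *Rps29* (-0.64), higher by age, were among the lower genes by organ. That spleen library enters both comparisons, so the opposite signs of these genes are not independent.

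Few genes were near their splenic level. *Rpl13a* had a log2 ratio of -0.087 by organ and *Rpl36al*, an autosomal copy of *Rpl36a*, one of -0.085. Genes above 0 were *Rps27l* (147 to 175 CPM, a ratio of 0.25) and *Rpl7l1* (51.6 to 52.3 CPM, a ratio of 0.021 that lies within counting error). Over T cell clusters alone, *Rps27l* turned to -0.079 and *Rpl13a* to 0.090. Within RP UMIs, *Rpl35a*, named after its values were seen, took 1.49% to 1.80% in 28W spleen clusters and 1.85% to 2.03% in kidney clusters, ranges that did not overlap.

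The size of the difference depended on which clusters entered. The 6 tubule markers had a summed level of 4799 CPM in kidney cluster 7 and the 6 myeloid markers 10996 CPM in cluster 12, while the defining tubule genes *Miox* and *Slc34a1* had 0 UMIs in both spleen libraries. RP genes held 16.3% and 19.1% of UMIs in these clusters. Kidney cluster 11, set aside for 1809 CPM of red cell markers, also had 5387 CPM of T cell markers and 4532 CPM of cycling markers. Its RP share was 17.8%. It is not among the T cell clusters, whereas the splenic clusters with most cycling markers are. The part of each cluster left out was not tested. Over T cell clusters alone the RP share was 32.5%, 33.9% and 27.4%. The median ratio by organ was then -0.32, with 76 of 80 genes below 0 and 2 lower by 1.5-fold. The same counts of all genes were not taken for these clusters. In pooled libraries fewer cells of a type and less RNA per cell cannot be told apart. Kidney tissue was digested with collagenase I and passed over Percoll, steps not described for spleen, so organ and preparation cannot be told apart either.

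Within each library the RP share differed widely between clusters. In 12W spleen the lowest was cluster 8 with 4.72% (4.64 to 4.79) and the highest cluster 6 with 39.4%. In 28W spleen these were cluster 11 with 10.6% (10.4 to 10.7) and cluster 1 with 40.1%. In 28W kidney they were cluster 2 with 7.81% (7.76 to 7.87) and cluster 5 with 36.9%. Each lowest cluster had little RNA, at 928, 1288 and 1200 UMIs per cell, and much mitochondrially encoded RNA, at 8.98%, 6.64% and 10.8% of UMIs beside 1.18%, 1.07% and 1.16% in the whole libraries. Kidney cluster 2 also carried RNA of other cells. Its B cell markers summed to 925 CPM, tubule markers to 568, red cell markers to 2147 and T cell markers to 2278 CPM. The part of other cells and of RNA quality in these shares was not tested. Over T cell clusters the range narrowed to 28.5% to 39.4%, 24.6% to 40.1% and 23.2% to 36.9%, so that the libraries overlapped.

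**Figure D4:**
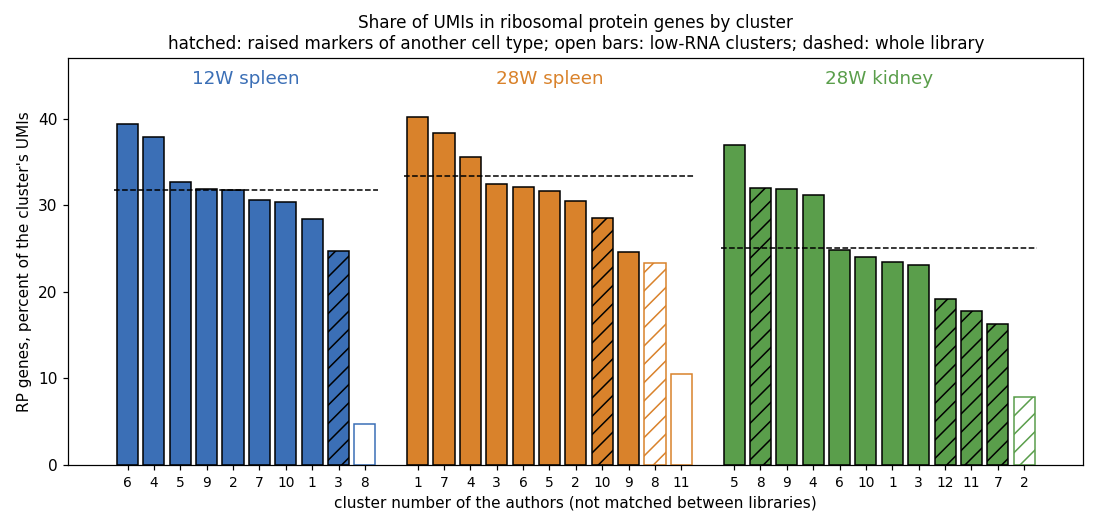
Percent of each cluster's UMIs that lie in RP genes, clusters sorted by share within each library; hatched bars have raised markers of B, myeloid, tubule or red cells, open bars are low-RNA clusters, and dashed lines give the whole library (31.8%, 33.4% and 25.1%). The lowest bar of each library is a low-RNA cluster at 4.72%, 10.6% or 7.81%, and the kidney line lies below both spleen lines.

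Kidney T cell clusters formed a high and a low group. Clusters 5, 9 and 4 had RP shares of 36.9%, 31.9% and 31.1%, and 78, 77 and 77 of 80 RP genes lay above their library level there. These counts largely follow from grouping clusters by RP share and add little to it. The share of all genes above library level was not taken. Clusters 6, 10, 1 and 3 had shares between 23.2% and 24.8%. Naive and memory markers, among them *Lef1*, *Ccr7*, *Tcf7*, *Il7r* and *Satb1*, summed to 1048 CPM in cluster 5, 875 in cluster 9 and 542 in cluster 4, and to 147 to 558 CPM in the others. Cytotoxic markers, among them *Gzmk*, *Gzmb* and *Nkg7*, summed to 7728 to 9736 CPM in the high clusters and 9970 to 20833 CPM in the low ones. Over the 7 clusters Pearson's r of RP share was 0.89 with the memory markers and -0.72 with the cytotoxic markers. In the 8 T cell clusters of 12W spleen these were 0.41 and -0.14, and in the 8 of 28W spleen 0.35 and -0.67. The last include cluster 9 of 28W spleen, with 20766 CPM of cytotoxic markers and an RP share of 24.6%. At 1706 UMIs per cell, beside a library mean of 4941, that cluster lay just above the low-RNA cut, and its part was not tested. These correlations are descriptions, since the shares of a cluster sum to a fixed total.

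Cycling clusters differed between organs. The cluster with the most cycling markers (*Mki67*, *Top2a*, *Birc5*, *Stmn1* and *Pclaf*) had an RP share of 30.3% in 12W spleen (cluster 10), 32.1% in 28W spleen (cluster 6) and 17.8% in 28W kidney (cluster 11). All had many UMIs per cell, at 14345, 12208 and 11404. RP UMIs per cell were 4352, 3920 and 2031. Red cell genes summed to 1809 CPM in the kidney cluster and to 6.64 and 4.19 CPM in the splenic ones, and their part was not tested.

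Levels of RP genes moved together over clusters. Pearson's r between the log2 level of a gene and that of all RP genes summed, over 33 clusters and centred within each library, had a median of 0.967 over the 80 genes, beside 0.095 over 2183 other genes with at least 50 CPM in each library. Each RP gene is itself a part of the sum. Over the 23 T cell clusters the medians were 0.849 and -0.30. Over all 33 clusters the lowest RP genes were *Rps27l* (0.43), *Rpl7l1* (0.46) and *Rps15* (0.47). Over T cell clusters alone *Rps27l* was at -0.29, *Rpl7l1* at -0.27 and *Rps15* at 0.14. Genes outside the rule were ranked over the same 33 clusters. Among the 10 most like the sum were *Gm10260*, *Tpt1*, *Nsa2*, *Rps3a1*, *Eef1a1*, *Gm10076*, *Eef1b2*, *Naca* and *Eif3f*, from 0.979 to 0.941. Of these, *Rps3a1* encodes a ribosomal protein that the rule leaves out, and *Gm10260* and *Gm10076* are near-identical to *Rps18* and *Rpl41*. The 5 least like over these 33 clusters were *Rrbp1*, *mt-Co2*, *mt-Atp6*, *Srpr* and *mt-Atp8*, from -0.86 to -0.83. Over T cell clusters alone *mt-Co2* was at -0.13, *mt-Atp6* at -0.058 and *mt-Atp8* at -0.023. *Rrbp1* and *Srpr* were then at -0.75 and -0.57.

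The make-up of the RP pool was steady for most genes. The SD over clusters of a gene's log2 share of RP UMIs had a median of 0.20. The narrowest were *Rpl21* (0.087), *Rps14* (0.093), *Rpl13* (0.096), *Rpl27a* (0.10) and *Rpl23* (0.10). *Rpl21*, for example, took from 0.938% to 1.26% of RP UMIs over all 33 clusters. Among the widest were *Rps27l* (0.82), *Rpl7l1* (0.67), *Rps15* (0.61) and *Rps12* (0.37). *Rps12* ranged from 0.328% to 1.21%.

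**Figure D5:**
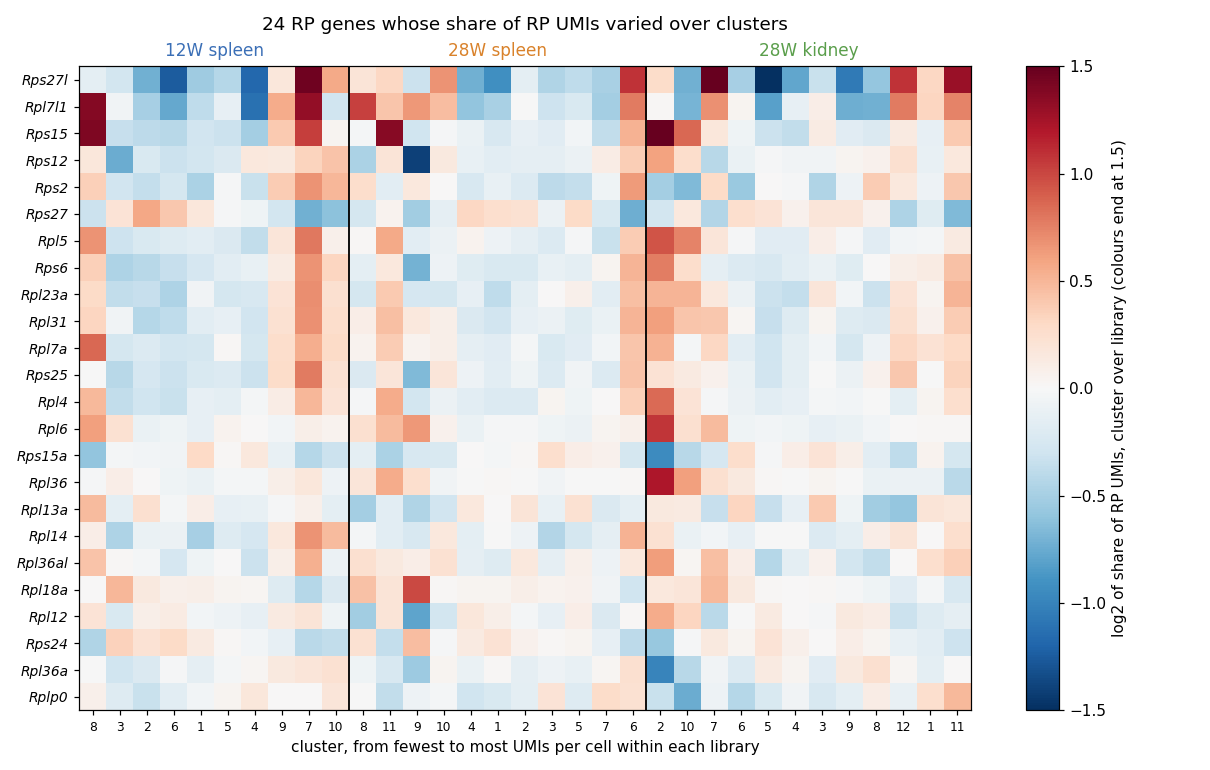
Heat map of 24 RP genes (rows) with a wide SD over clusters, showing the log2 share of RP UMIs in a cluster over that in its library; columns are the 33 clusters, sorted within each library from fewest to most UMIs per cell, red is higher and blue lower. *Rps27l* is red in the cluster with most UMIs of each library while *Rps27* is blue there, and *Rps15* is red in the low-RNA clusters 8 of 12W spleen, 11 of 28W spleen and 2 of 28W kidney.

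*Rps15*, needed for export of the 40S precursor from the nucleus, was high in the low-RNA clusters with most mitochondrial RNA, where its log2 share over the library was 1.40 (12W cluster 8), 1.37 (28W spleen cluster 11) and 1.99 (kidney cluster 2). In UMI-rich clusters *Rps27l* was high and *Rps27* low. In 12W spleen cluster 7, with 13406 UMIs per cell and 6918 CPM of ribosome biogenesis genes, the highest of any cluster, the values were 1.45 for *Rps27l* and -0.72 for *Rps27*. In 28W spleen cluster 6 they were 1.09 and -0.73, and in kidney cluster 11 they were 1.30 and -0.66. *Rps12* was lowest in 28W spleen cluster 9, at -1.41.

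In these clusters *Rps27l* was high and its parent *Rps27* low, which did not hold everywhere, as both lay below their library share in 28W spleen cluster 7 (-0.49 and -0.23). Per 100 *Rps27* UMIs there were 3.14, 1.69 and 2.75 *Rps27l* UMIs. In 12W spleen it was lowest in cluster 6, with 178 *Rps27l* and 17806 *Rps27* UMIs, and highest in cluster 7, at 14.2. In 28W spleen T cell clusters it was lowest in cluster 1, at 0.756, and highest in cluster 6, with 1940 and 32349 UMIs. Kidney T cell clusters ran from 0.851 (cluster 5) to 3.86 (cluster 1). Both genes contributed, as *Rps27l* was at 95.4 CPM and *Rps27* at 9545 CPM in 12W cluster 6, against 483 and 3405 CPM in cluster 7. Over T cell clusters, Spearman's rho of the ratio with the summed cycling markers was 0.93 (8 clusters), 0.98 (8 clusters) and 0.57 (7 clusters). Over all clusters it was 0.89 (10 clusters), 0.95 (11 clusters) and 0.85 (12 clusters). Kidney clusters 7 and 11, with tubule or red cell markers, reached 10.8 and 10.7. Cluster 11, with the most cycling markers in kidney (4532 CPM), is thus outside the 7 clusters.

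The other paralogs of at least 50 CPM were steadier than *Rps27l* over T cell clusters, relative to their parents. *Rpl22l1*, which can replace *Rpl22* and regulates splicing, had 50.2, 43.7 and 40.8 UMIs per 100 of *Rpl22*. *Rpl7l1* had 3.08, 2.38 and 3.30 per 100 of *Rpl7*, but over T cell clusters it ran from 1.33 to 7.36, from 1.59 to 5.66 and from 2.01 to 3.78. *Rpl36al* had 38.7, 43.2 and 66.0 per 100 of *Rpl36a*, highest in kidney. Over T cell clusters this last ratio ran from 30.4 to 49.2, from 37.4 to 67.4 and from 44.6 to 89.9, so the ranges overlapped. The 3 genes under 50 CPM in all libraries are known from other tissues. *Rpl39l*, a testis gene, had 45, 38 and 37 UMIs. *Rpl3l*, of heart and skeletal muscle, had 1, 2 and 8 UMIs. *Rpl10l*, also of testis, had 1 UMI in 12W spleen and 0 in the others, which allows up to 0.0937 and 0.100 CPM.

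Other genes of translation and ribosome making were taken from lists. Of 16 other TOP mRNAs, which encode translation factors and the like, 13 had a ratio below 0 by age (median -0.12), beside 1871 of the 2768 genes tested (median -0.10). By organ 15 were below 0 (median -0.33), beside 1024 of the 2852 genes tested (median 0.095). None and 2 were lower by 1.5-fold, beside 2.28% and 4.21% of all genes, the latter being *Npm1* (-0.77) and *Eef1b2* (-0.71). *Eef1a1*, the main elongation factor, was at 9589, 9603 and 7498 CPM. Over clusters the summed TOP mRNAs followed the RP share with Pearson's r of 0.97 (10 clusters), 0.98 (11) and 0.94 (12), and 0.77, 0.92 and 0.77 over T cell clusters. Ribosome biogenesis genes, which act in the nucleolus, had mostly lower ratios. All 12 tested were below 0 by age (median -0.44) and 10 of 11 by organ (median -0.43), set against the same counts of all genes, with 1 and 2 lower by 1.5-fold (2.28% and 4.21% of all genes). *Ncl* was at 492, 377 and 280 CPM and *Fbl* at 267, 194 and 127 CPM. *Gar1*, the gene past 1.5-fold by age, had a ratio of -0.65. *Myc*, which drives ribosome making, was at 153, 79.3 and 42.1 CPM. By age the biogenesis genes thus had lower ratios than RP genes in the pooled libraries, and by organ the medians were alike. In 12W spleen cluster 7 the biogenesis genes summed to 6918 CPM. The other T cell clusters of 12W spleen ran from 970 to 3325 CPM, and those of 28W spleen from 1002 to 3328 CPM. The part of that cluster in the ratios by age was not tested. Of the ribosomal proteins outside the rule, *Fau* had a log2 ratio of 0.15 by age and -0.087 by organ, and *Rack1* of 0.053 and -0.56.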

How the data were processed

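Sorted CD8+ T cells were profiled with the 10x Genomics 5′ v2 kit, 4 samples in each of 3 groups. Per the labels, Cell Ranger 2.1.1, R 3.6.1 and GRCm38 were used, while the methods of the study name another Cell Ranger version. Cell filters and doublet handling are not given in the sources used here. For each library the authors deposited cluster numbers and, per gene and cluster, mean UMI counts, a signal in which UMIs are divided by summed size factors. Columns with the log2 fold change and adjusted p of each cluster against the rest were not used. Each mean is a whole multiple of its column's step, so whole UMIs were recovered for 100% of values, within 0.001. They were summed over clusters and scaled to 1000000 UMIs per library (CPM). Because the authors scaled each table on its own, levels across libraries rest on this step.

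The 12W spleen, 28W spleen and 28W kidney libraries held 6894, 6481 and 7135 cells. Log2 ratios of CPM + 1 were taken for genes that reached 50 CPM in 1 or both libraries, and called at 1.5-fold. With 1 library a group no test was possible. The 95% intervals are exact Poisson or binomial limits and cover counting error, not animals. Clusters were set aside where a marker list summed to at least 50 CPM and 5 times the median cluster (the 50 CPM floor was added after the data were seen), or where UMIs per cell were under the library mean divided by 3.

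RP genes and lists were chosen with earlier results of these data known. Named were the 5 highest RP genes in 12W spleen, the 5 highest and lowest ratios of each comparison, the 5 widest and narrowest SDs, paralogs with parents, RP genes under 50 CPM, listed genes, and the 10 genes most and 5 least like the RP sum. Of the listed names, *Gas5*, *Eda2r* and *Rps4l* were in none of the tables. Positions and coding lengths came from GENCODE M21. Near-identical genes and pseudogene copies had at least 95% identity over 80% of the coding bases (blastn 2.17.0). Start windows came from RefSeq. Scripts used Python 3.11.15, numpy 2.4.6, pandas 2.3.3 and scipy 1.17.1 and were tested on simulated data. Alternatives covered scaling, pseudocount, level filter, cell weighting, clusters, paralogs and the fold threshold. Cluster ranges of all genes relative to RP UMIs were added after the data were seen. Values of some RP genes and listed genes are not reported or drawn here, though they stay in the counts, medians and sums.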

Additional observations from a re-analysis of the deposited data

How the results depend on the processing

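No alternative changed the order of the libraries by RP share or the sign of a median ratio. Restriction to T cell clusters did change the sign for some single genes, such as *Rps27l* and *Rpl13a* by organ. It also did so for the correlation of mitochondrial ribosomal proteins with the RP share. Weighting cells equally gave RP shares of 30.3%, 32.3% and 24.1% (12W spleen, then 28W spleen, then 28W kidney), without mitochondrially encoded genes 32.2%, 33.8% and 25.4%, without other-cell clusters 32.3%, 33.7% and 27.4%, without low-RNA clusters 32.0%, 33.8% and 25.6%, and without paralogs 31.6%, 33.2% and 24.9%. The median log2 ratio by age was 0.042 with cells weighted equally, 0.12 by the median gene ratio and 0.046 by the total of other nuclear genes. These scalings gave 6 and 5 genes higher by 1.5-fold, and a 1.2-fold threshold 8 higher (10.5% of all genes tested) and 2 lower (21.2%). The median by organ was -0.43 with cells weighted equally, -0.31 without other-cell clusters, -0.40 without low-RNA clusters, -0.52 by the median gene ratio and -0.59 by the total of other nuclear genes. The count lower by organ was 2 without other-cell clusters, 18 and 43 under these scalings and 71 at 1.2-fold (13.5% of all genes tested). Both scalings shift every gene by the same amount. The share of all genes called was not taken under them or without other-cell clusters, so those counts have no background beside them. Without mitochondrially encoded genes the highest and lowest cluster shares were 39.8% and 5.18% in 12W spleen, 40.5% and 11.3% in 28W spleen and 37.2% and 8.76% in 28W kidney. Without paralogs the highest were 39.1%, 39.9% and 36.7%, and the lowest kidney share was 7.75%. Beyond what each alternative changes by construction, the cause was not tested. The other 40 values were within the limits set for no change. No paired analysis was possible because each table pools the samples of its group, and for the same reason leaving out each replicate could not be run. Depth limits the genes with few UMIs, such as *Rpl10l* and *Rpl3l*.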

Other observations

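Mitochondrial ribosomal proteins, which serve the separate ribosome of that organelle, were taken from a list. Of 78 listed, 51 were tested by age and 46 by organ. By age 49 of 51 had a log2 ratio below 0 (median -0.24), beside 1871 of the 2768 genes tested (median -0.10). By organ 29 of 46 lay above 0 (median 0.042), beside 1828 of the 2852 genes tested (median 0.095). The share by organ was thus near that of all genes. None passed 1.5-fold in either comparison. Of all genes tested, 4.08% were higher and 2.28% lower by age, and 9.99% and 4.21% by organ. Over T cell clusters, Pearson's r of their summed level with the cytosolic RP share was -0.42 in 12W spleen (8 clusters), -0.51 in 28W spleen (8 clusters) and -0.28 in 28W kidney (7 clusters). Over all clusters the sign was the other way, at 0.43 (10 clusters), 0.35 (11 clusters) and 0.12 (12 clusters).

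Of 10 listed regulators of TOP mRNAs, 3 reached 50 CPM in a comparison, namely *Myc*, *Rheb* (90.7, 78.3 and 97.6 CPM in 12W spleen, then 28W spleen, then 28W kidney) and *Eif4ebp2* (73.7, 76.7 and 75.3 CPM). *Larp1* was at 21.7, 24.2 and 25.4 CPM, *Mtor* at 14.4, 13.2 and 14.0 CPM, and *Eif4ebp1* at 27.9, 18.1 and 17.7 CPM. Among p53 targets listed beside *Rps27l*, *Cdkn1a* was at 0.317, 2.78 and 22.1 CPM, *Ccng1* at 93.0, 98.7 and 122 CPM, and *Mdm2* at 39.3, 42.5 and 45.1 CPM. *Gm10076*, whose coding match to *Rpl41* is complete, was at 146, 73.0 and 83.4 CPM, while *Rpl41* itself had a log2 ratio of -0.0046 by age.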
